A study of Schizosaccharomyces pombe with 2 samples.

Results

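The poly(A) site landscape of wild-type fission yeast, Schizosaccharomyces pombe, was described from 1 library of polyadenylated RNA 3′ ends. The values are counts of poly(A) site-supporting reads, that is, reads carrying A residues absent from the genome, at each position and strand. The members are the protein coding genes of the RefSeq annotation with 50 or more reads past the stop codon, of which there were 2812 among 5113 coding genes on chromosomes I, II and III (55.0%). The culture was a wild-type strain grown in minimal medium with thiamine, and total RNA was the starting material. The series also holds a library from an nmt1-SEB1 strain, which was not used here. With 1 wild-type library there was no replicate, so all values below describe that library, and intervals on shares of reads cover counting error only.

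Almost every eukaryotic mRNA is cut downstream of its stop codon by the cleavage and polyadenylation machinery, which then adds a poly(A) tail. The place of the cut sets the length of the 3′ untranslated region (3′ UTR), where RNA-binding proteins act on stability, translation and localisation, and it also decides where termination of RNA polymerase II is triggered. In fission yeast the signals are an A-rich element upstream of the cut, of which AAUAAA is the best known form, U-rich stretches around it, and downstream elements such as UGUA. Many genes have more than one site, and neighbouring genes lie close together, so that the end of one gene can reach into the next.

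The sequence upstream of the main site is shown first, for genes with a single dominant site, with several sites, and with very short or very long 3′ UTRs. Each run is 30 bases of the transcribed strand, 5′ to 3′, and its last base is the position with the most reads. Capitals mark AATAAA or AATGAA, the motifs searched.
rpl301: ctgAATAAAatttgtcgggatcccttttaa
gpd3: tataattttaAATGAAttgttttttcttca
shm1: aatatcattttgcatccggtttccttataa
sam1: attatatgttaatggatttggttcaagaca
tdh1: cttataAATAAAttttatgattttgataaa
act1, main site: tagtaAATGAAttttacttactcccgttaa
act1, proximal site: tacttttgaataacatcgattcttctgata
fba1, main site: gtttgaatatagagacattgttttttaaaa
fba1, proximal site: cccttaatgagagttcatactgttttgaaa
cdc42, main site: ttccgttaAATAAAcgacgattttgctata
cdc42, distal site: gcaaataatattatttcatttgttagaaaa
naa10: attgaacaactAATAAAatatataccgtta
rsc7: acaAATAAAatgtacacgtatcccgcctaa
In these runs the capitals, where present, began between 18 and 26 bases before the last base. The windows of shm1, sam1, both sites of fba1, the proximal site of act1 and the distal site of cdc42 held neither motif. The genes were picked for print after their values had been seen.

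These runs came from the RefSeq assembly ASM294v3, on the strand and at the coordinates given next. The plus-strand runs were rpl301 at I:1757298-1757327, gpd3 at II:580027-580056, tdh1 at II:2808968-2808997, naa10 at I:3730979-3731008 and rsc7 at III:1392059-1392088. Also on the plus strand were fba1 at II:1689550-1689579 and II:1689514-1689543, and cdc42 at I:1917500-1917529 and I:1917627-1917656. The minus-strand runs were shm1 at I:3069320-3069349, sam1 at II:4162069-4162098, and act1 at II:1475724-1475753 and II:1476088-1476117.

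The wild-type library held 2702105 reads, of which 2697953 lay on the 3 nuclear chromosomes at 114474 positions. Windows from the stop codon of the members took 92.9% of the nuclear reads. Of the coding genes outside the set, 994 had 20 to 49 reads past the stop codon, 1067 had 1 to 19 and 240 had none. The 121 genes with 50 to 54 reads had a median 3′ UTR of 153 nt, and the 124 genes with 45 to 49 reads, just outside the set, one of 173 nt. Median main-cluster shares in these 2 bands were 64.7% and 65.3%. Reads were few for genes repressed by thiamine, with 9 for nmt1, 14 for thi2 and 0 for nmt2, while seb1 had 1808. The uracil synthesis gene ura4 had 0 reads over the whole gene and its downstream window; a count of 0 allows up to 3 reads.

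Reads were concentrated in few genes. The 281 members with the most reads took 74.4% of all member reads, and the median member had 167. The gene with the most, rpl301, which encodes a protein of the large ribosomal subunit, had 207155 reads or 7.68% of nuclear reads. It was followed by gpd3, a glyceraldehyde-3-phosphate dehydrogenase gene of glycolysis, with 81079 reads, and shm1, which encodes serine hydroxymethyltransferase of one-carbon metabolism, with 56092. sam1, which makes the methyl donor S-adenosylmethionine, had 40681 reads, and the methionine synthase gene met26 had 36969. In 4 of these 5 genes more than 99% of reads fell in 1 cluster, and the share of met26 was 94.6%.

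The 3′ UTR of a typical gene was short but the range was wide. Measured from the stop codon to the position with most reads in the main cluster, its median was 181 nt, with quartiles at 94 nt and 327 nt and the 5th and 95th percentiles at 36 nt and 732 nt. A cluster here is the position with the most reads together with all positions within 24 nt, taken again on what is left; a share of reads given at a distance is, here and below, that of the whole cluster whose highest position lies there. The mean read position gave a median of 200.1 nt. Main ends lay under 50 nt from the stop codon in 281 genes (9.99%), from 200 to under 400 nt in 778 genes (27.7%) and more than 1000 nt away in 56 genes (1.99%). Distances are genomic and include any intron in the 3′ UTR.

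**Figure D1:**
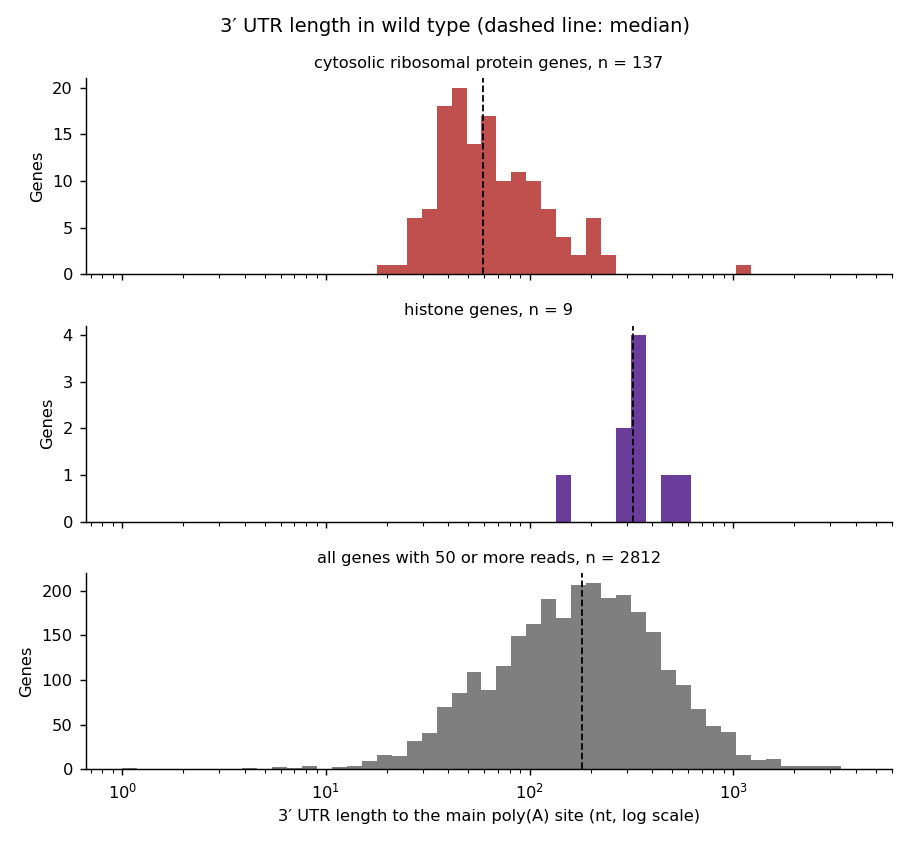
Number of genes (vertical axis) by 3′ UTR length to the main poly(A) site in nt (horizontal axis, log scale) for cytosolic ribosomal protein genes, histone genes and all genes measured, with the median as a dashed line. The ribosomal protein genes centre on 59 nt and the histone genes on 321 nt, against 181 nt for all genes.

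At the short end, among genes with 200 or more reads, the main end of nap2, a nucleosome assembly gene, lay 6 nt past the stop codon. This was the main cluster of 3, and it held 47.4% of the gene's 228 reads (Wilson 95% interval 41.0 to 53.8). The next shortest were dbl1 (15 nt, 93.5% of 310 reads), bet4 (16 nt, 78.7% of 381), naa10 (17 nt, 99.9% of 886) and the RNA polymerase III subunit gene rpc82 (17 nt, 95.7% of 233). naa10 encodes the catalytic subunit of the N-terminal acetyltransferase NatA, and bet4 a subunit of the enzyme that attaches lipid anchors to Rab proteins. So apart from nap2 these very short 3′ UTRs belonged to genes that used them for most of their reads.

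Among genes with 200 or more reads, the 5 longest had a different make-up. SPBP8B7.32 had its main end 2971 nt past the stop codon, with 28.6% of 287 reads (interval 23.65 to 34.05). For prp3, a splicing factor gene, it lay at 2397 nt with 41.1% of 302 reads, and for the histone chaperone gene chz1 at 2318 nt with 50.2% of 291. SPCC1672.01, which encodes histidinol-phosphatase of histidine synthesis, had 37.2% of 392 reads at 2184 nt and 24.5% at 53 nt. The exception was rsc7, a subunit gene of the chromatin remodeller RSC, with 90.2% of 1169 reads at 2118 nt (interval 88.3 to 91.7), at the annotated end of the gene. In prp3 the stop codon of the convergent neighbour lay 53 nt away, and in chz1 161 nt away, so these main ends lay past it. Whether such distant reads belong to the mRNA or to another transcript on the same strand cannot be told apart in these data.

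Most genes used several sites. With clusters counted from 5% of the gene's reads, 755 genes (26.8%) had 1 cluster, 868 had 2, 635 had 3 and 554 (19.7%) had 4 or more. The main cluster held a median of 75.4% of reads, with quartiles at 56.1% and 92.2%, and it held 90% or more in 827 genes. The spread of ends, taken as the distance between the 10th and 90th percentile of reads, had a median of 68 nt and quartiles of 16 nt and 188 nt. Longer 3′ UTRs had more spread ends, with a Spearman correlation of 0.29 over 2812 genes, which all share this library and its depth.

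**Figure D2:**
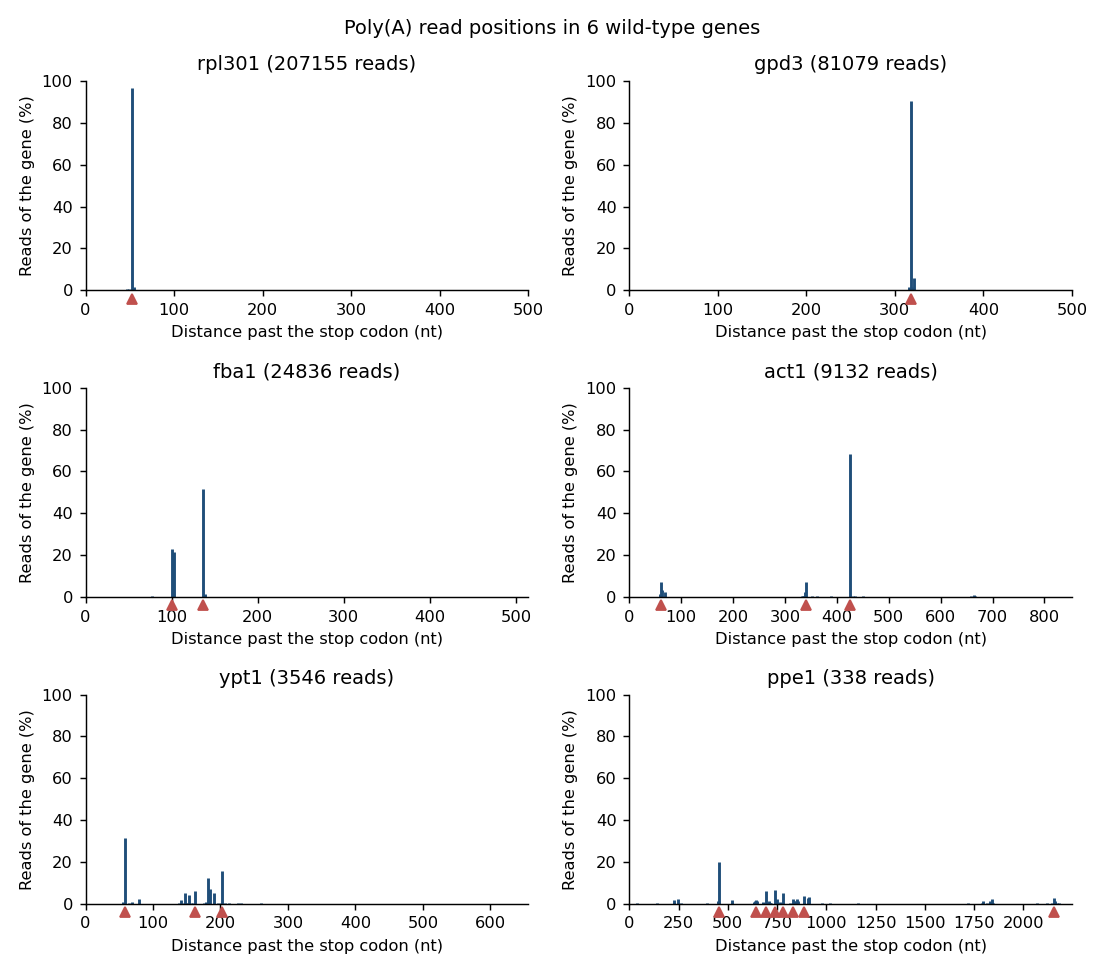
Share of a gene's reads (vertical axis, percent) at each distance past the stop codon (horizontal axis, nt) for 6 genes; triangles mark clusters with 5% or more of the reads. rpl301 and gpd3 end at 1 place, fba1 has a close pair, act1 and ypt1 have 3 clusters, and ppe1 has 8.

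Individual genes show the range between a single site and many. In fba1, the aldolase gene of glycolysis, 54.7% of 24836 reads fell in the cluster at 136 nt (interval 54.03 to 55.27) and 45.2% in that at 100 nt. The actin gene act1 had 69.1% of its 9132 reads at 425 nt (interval 68.2 to 70.0), 14.9% at 61 nt and 11.7% at 341 nt. In ypt1, a Rab GTPase gene of membrane traffic, shares of 44.0%, 36.1% and 18.9% of 3546 reads fell at 203, 58 and 163 nt. The adenosylhomocysteinase gene SPBC8D2.18C, among the 6 genes with the most reads, likewise divided its 35157 reads over ends at 200 nt (49.8%), 267 nt (30.1%) and 69 nt (17.5%). High abundance did not therefore come with a single site in every gene.

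The most dispersed genes with 200 or more reads were ppe1, a protein phosphatase gene with 8 clusters, and knh4 and ggg1 with 7 each. The largest cluster of ppe1 held 22.2% of 338 reads (interval 18.1 to 26.9), that of knh4 24.3% of 412 and that of ggg1 35.1% of 285. gmh6, a galactosyltransferase gene, and tom7, of the mitochondrial import pore, had 6 clusters, with 26.0% and 28.1% of reads in the largest.

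At the other end, single nucleotides took nearly all reads of some genes. One position held 98.3% of the 9040 reads of rpl2802, 97.8% of the 7808 of rps2402, both ribosomal protein genes, and 97.5% of the 2056 of lvs1. The shares were 97.2% for rps1401 and 96.9% for mdm31, a gene of mitochondrial morphology. Across all members 1 position held a median of 43.2% of the gene's reads, and it held 50% or more in 1085 genes (38.6%). Within 24 nt of the main position, 62.6% of reads on average fell exactly on it and 79.0% within 5 nt.

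The second cluster was as often downstream of the main one as upstream. Among 2057 genes with 2 or more clusters it lay downstream in 1041 (50.6%). The distance between the 2 had a median of 82 nt, with quartiles at 46 nt and 172 nt, and it was over 400 nt in 179 genes. The second cluster held a median of 19.1% of reads. In the cell polarity gene cdc42 it lay downstream, at 377 nt against 250 nt, with 29.7% against 62.9% of 1503 reads. In the TORC1 kinase gene tor2 it was downstream at 120 nt, against 85 nt, and in the histone H3 gene hht3 it was upstream at 267 nt, against 355 nt.

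Genes with more reads had ends gathered at fewer places. To compare genes of different depth, the chance that 2 reads drawn from a gene fall in the same cluster was used. In 5 bins from the fewest to the most reads its median was 50.6%, 52.0%, 56.3%, 66.1% and 81.1%. With every gene thinned to 50 reads and the clusters built again, it was 50.7%, 52.1%, 56.65%, 66.2% and 80.1%. Main-cluster shares were 68.1%, 68.6%, 72.6%, 80.1% and 89.7% in the same bins, and genes with 1 cluster made up 16.3%, 20.1%, 22.6%, 31.0% and 44.3%. The bins ran from 50 to 80 reads at the bottom to 578 to 207155 at the top. The Spearman correlation between reads and this chance was 0.29 over 2812 genes. Thinning takes out differences in depth only. Reads of other transcripts in a gene's window would remain, and their part was not tested. The correlation of reads with main-cluster share was 0.28, and 0.23 with reads only up to the neighbour's coding sequence. Cytosolic ribosomal protein genes did not carry the pattern alone, since without them the medians were 50.6%, 52.9%, 55.15%, 62.85% and 78.1% in 5 bins drawn anew.

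Length showed a weaker relation to abundance, which moved with the read minimum. The median 3′ UTR was 169, 193, 186, 196 and 156 nt in the 5 bins from the fewest to the most reads, with a Spearman correlation of -0.05. Without the ribosomal protein genes the medians were 169, 194, 188, 201 and 192 nt, and the correlation was 0.02. With genes from 20 reads on, the correlation over all genes changed sign, to 0.02, and with genes from 200 reads on it was -0.15.

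**Figure D3:**
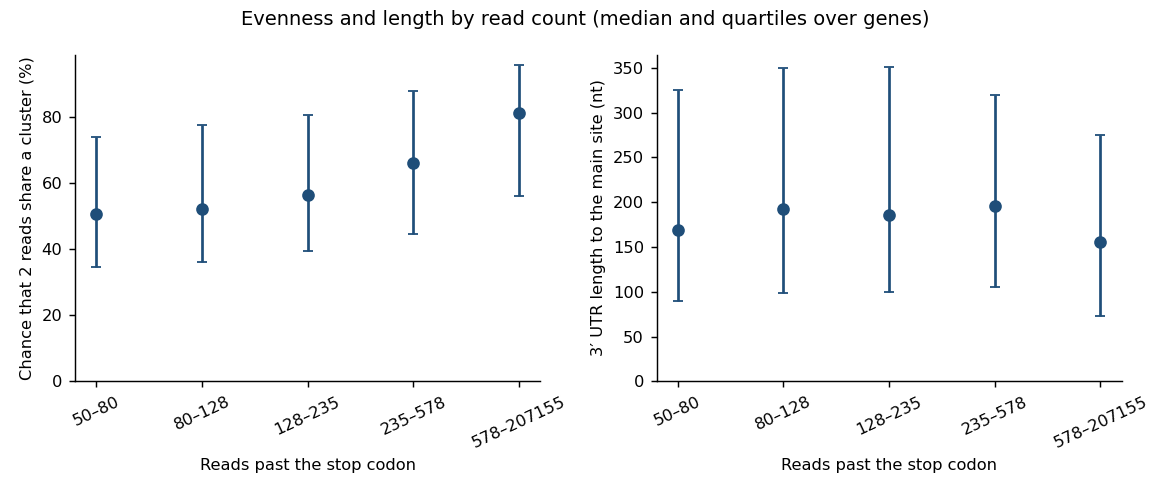
Chance that 2 reads of a gene share a cluster (left, percent) and 3′ UTR length to the main site (right, nt) in 5 bins of reads past the stop codon; points are medians and bars quartiles over genes. The chance goes from 50.6% in the bin with the fewest reads to 81.1% in the bin with the most, while the length medians stay between 156 and 196 nt.

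Cytosolic ribosomal protein genes, which encode the protein part of the ribosome and are strongly expressed in growing cells, had the shortest 3′ UTRs of the functional lists. Of 141 genes matched by symbol, 137 were measured, rpp40 among them, which the symbol pattern took in and which encodes an RNase P subunit. Their median length was 59 nt against 181 nt for all genes, 106 of the 137 lay under 100 nt and 9 lay above the median of all. Their ends were also concentrated, with a median main-cluster share of 93.3% against 75.4% for all genes. They took 30.5% of member reads. Among the 562 genes of the top bin of reads, the 107 ribosomal ones had a median of 54 nt and the 455 others one of 192 nt, with main-cluster shares of 94.5% and 88.1%.

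The large-subunit genes (82 of 86 measured, median 54 nt) and the small-subunit genes (55 of 55, median 65 nt) were alike in this. rpl42 had 99.98% of 28196 reads in 1 cluster, with 13357 of them at 37 nt and 12713 at 45 nt. The main cluster of rps1601, at 159 nt, held 96.5% of 22278 reads, and 93.1% fell on that position itself. The exceptions included rps2401, with 51.7% of 13703 reads at 210 nt and 39.3% at 71 nt, and rpl4101, whose cluster at 191 nt held 99.7% of 13053 reads. rpl1603 had only 152 reads, spread over 5 clusters, the largest of them at 1169 nt with 30.9%.

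Most ribosomal proteins of fission yeast are encoded by duplicated genes, whose 3′ UTRs could be compared. Over 59 pairs from 51 families the main ends differed by a median of 32 nt, with quartiles at 10 nt and 72 nt. In 19 pairs they were over 50 nt apart and in 16 within 10 nt. rps2401 and rps2402 had main ends at 210 nt and 65 nt, with 3 clusters and 1, and rpl1201 and rpl1202 at 46 nt and 150 nt, with 1 cluster each. rps1901 and rps1902 both had theirs at 45 nt, and rps3001 and rps3002 both at 95 nt. How reads that align equally well to both copies were treated is not given in the sources used here.

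Histone genes, whose products package DNA, stood at the other side. All but hht2 (148 nt) of the 9 measured, of 11 listed, had main ends further than the median of all genes, and their median was 321 nt against 181 nt. The main cluster of hht1, at 321 nt, held 89.5% of 2124 reads, with 779 reads at 321 nt and 627 at 324 nt. It held 74.2% of 1492 reads in hhf1 (319 nt), 93.2% of 672 in hta2 (470 nt) and 63.0% of 297 in htb1, the only H2B gene (596 nt).

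Several other lists also had longer 3′ UTRs than the set of all genes. The median was 264 nt for protein kinases (48 of 94 listed genes measured), 264 nt for cell division cycle genes (13 of 31), 251 nt for DNA-binding transcription factors (17 of 29) and 235 nt for membrane transporters (94 of 190). The meiotically upregulated mug and meu genes stood at 305 nt, but only 24 of 110 reached 50 reads. The median distance to the downstream neighbour's coding sequence was 660.5, 697, 624, 767.5 and 649.5 nt in the same order, against 568 nt for all genes. It was 848 nt for histone genes, and 1070 nt for glycolysis and fermentation genes, whose median 3′ UTR was 165 nt. The part of this distance in the lengths was not tested. Of the kinases 35 of 48 and of the transporters 68 of 94 were longer than the median of all genes. Examples were cki2, a casein kinase gene, with 84.1% of 1452 reads at 351 nt, and zrt1, which encodes a zinc transporter, with 90.7% of 3558 reads at 214 nt. tor2 was short for a kinase, at 85 nt. The GATA-type transcription factor gene gaf1 had 69.7% of 2581 reads in the cluster at 514 nt, and the transcription factor gene zip1 83.5% of 8122 in that at 238 nt.

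The 13 cell division cycle genes measured had a median main-cluster share of 65.02%, against 75.4% for all genes. Of them 7.69% had a single cluster (interval 1.37 to 33.3), and of all genes 26.8%, which lies within that interval. cdc48, which encodes a protein-unfolding ATPase, had 42.5% of 1745 reads at 206 nt, 26.4% at 139 nt and 18.5% at 65 nt. RNA polymerase subunits had a similar length (248.5 nt, 20 of 32 measured) but concentrated ends, with a median share of 88.5% and 10 of 20, or 50%, with 1 cluster; rpc11 had 94.6% of 653 reads at 220 nt.

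The other lists described here had medians between 128 nt and 230.5 nt. They were 165 nt for glycolysis and fermentation (14 of 17), 145 nt for translation factors (46 of 50), 172 nt for proteasome subunits (29 of 35), 202 nt for the respiratory chain and ATP synthase (36 of 41) and 171 nt for amino acid synthesis (56 of 68). They were 128 nt for splicing factors (30 of 58), 147 nt for heat shock proteins and chaperones (60 of 90), 162 nt for ubiquitin enzymes (47 of 85) and 230.5 nt for the few mitochondrial ribosomal protein genes found by product name (6 of 11). Within glycolysis lengths ran from 60 nt in gpm1, the phosphoglycerate mutase gene, to 351 nt in pgk1, the phosphoglycerate kinase gene. The heat shock gene hsp90 had 96.6% of 2784 reads in the cluster at 232 nt, of which 989 fell on that position and 613 at 215 nt. In tef3, an elongation factor gene, the cluster at 135 nt held 98.7% of 22769 reads, with 11212 at 135 nt and 7303 at 133 nt. The acid phosphatase gene pho1, induced by phosphate starvation, had 97.9% of 2031 reads in the cluster at 135 nt.

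The cleavage, polyadenylation and termination factors themselves had a median of 169 nt (21 of 26), with a wide range from 22 nt in din1 to 832 nt in dhp1, the nuclear exonuclease gene of termination. The endonuclease gene ysh1 had 99.1% of 454 reads in the cluster at 176 nt and the helicase gene sen1 92.6% of 1257 in that at 55 nt. The main cluster of seb1, at 116 nt, held 92.6% of 1808 reads, but 1 position held only 31.1%, and the 10th and 90th percentiles lay at 98 nt and 133 nt. pcf11 (6 clusters, 33.7% of 89 reads in the largest) and msi2 (6 clusters, 30.5% of 223) were among the most divided.

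The base composition around the main site followed a fixed order. With the site and the bases beside it left out, adenine peaked 20 nt upstream, at 47.9% of genes, and thymine 9 nt upstream, at 54.8%. The base just before the last one was adenine in 49.5%, and the base after the end was thymine in 62.3%. Between 100 and 61 nt upstream the same bases stood at 29.1% and 37.3%. The last base of the main site was adenine in 96.8% of genes and the next base was never adenine. Genomic A residues and tail residues cannot be told apart, so a main end inside an A run is placed at its last A. The cut could lie at any base of the run. Adenine is thus left out at the base after the end, which raises the shares of the other bases there. The 62.3% for thymine is therefore not on the same footing as the 37.3% upstream.

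**Figure D4:**
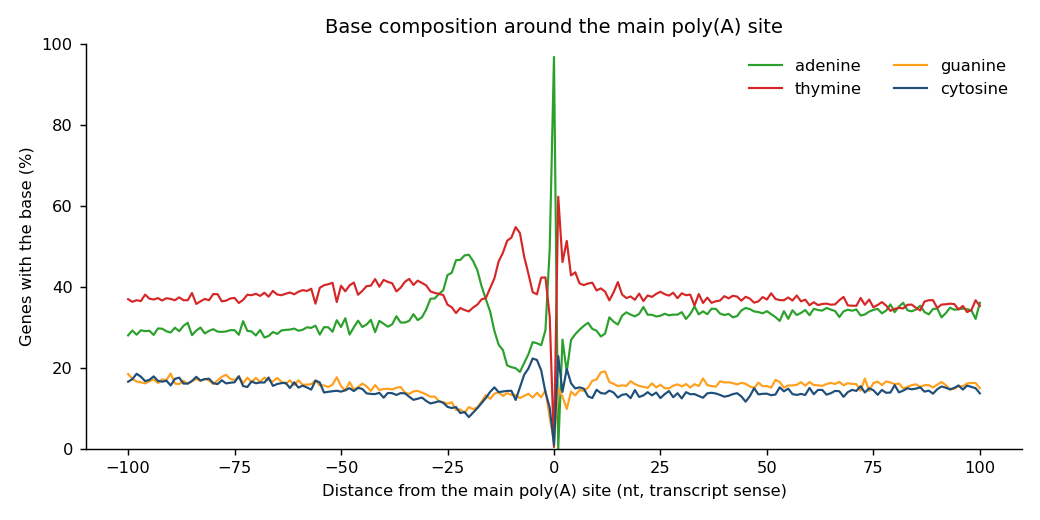
Percent of genes with each base (vertical axis) at each distance from the main poly(A) site in nt (horizontal axis, transcript sense, negative upstream) over 2812 genes. With the site and the bases beside it left out, adenine peaks at 20 nt and thymine at 9 nt upstream. The site itself is adenine in 96.8%.

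The canonical hexamer was found in a minority of genes. AATAAA occurred on the transcribed strand in the 40 nt up to the main site in 544 genes (19.3%), and AATAAA or AATGAA in 782 (27.8%). In windows of the same length ending 100 nt before the site the pair occurred in 4.87% of genes, in windows starting just over 100 nt past it in 10.1%, and over 40 nt windows of the genome on both strands in 7.23%. Its first base lay a median of 24 nt before the end (quartiles 21 and 27). ATTAAA occurred in 6.65% of genes, against 3.45% upstream and 5.55% downstream, and AATACA in 5.12%, against 1.39% and 2.49%.

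Hexamers ranked by their frequency in those 40 nt over the window 100 nt upstream were mostly shifted or altered forms of AATAAA that overlap one another. TAATAA came first, in 14.3% against 1.71% of genes, followed by ATAATA (10.9% against 1.6%), AATAAA (19.3% against 2.88%) and TTAATA (16.0% against 2.60%). AATGAA was the 10th, with 9.32% against 2.03%. In the window starting just over 100 nt past the site AATAAA occurred in 7.01% of genes. Main ends lay under 50 nt from the stop codon in 281 genes and from 50 to under 100 nt in 487. In those genes the upstream window lay before the 3′ UTR, and its part in the ratios was not tested. The hexamers were picked by their values and carry no test. In the 40 nt after the site the ratios were smaller, and the highest was that of TTGTAG, in 3.70% of genes against 1.85% in the window 100 nt further downstream.

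Genes with a signal had more concentrated ends. The main cluster held a median of 84.3% of reads in the 544 genes with AATAAA and 82.2% in the 238 with AATGAA only, against 72.8% in the 2030 with neither. The chance that 2 reads share a cluster was 72.25%, 68.95% and 56.4% in the same order. Median reads differed little, at 166, 153 and 170, and so did median lengths, at 180, 181 and 182 nt. The share of genes with either motif showed no such order with abundance, at 29.7%, 29.2%, 24.5%, 27.2% and 28.5% from the fewest to the most reads. Of genes with 1 cluster 37.6% had either motif, and of genes with more 24.2% had it at the main and 18.3% at the second cluster.

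Downstream of the main site, TGTA occurred within 100 nt in 65.4% of genes, against 36.1% in the 100 nt before the site and 36.3% of 100 nt windows of the genome on both strands. GTA, which TGTA contains, occurred in 92.4%, 70.9% and 76.2%. Of 2 rearrangements of TGTA, TTGA occurred in 53.0%, 53.0% and 52.1%, and AGTT in 47.4%, 50.3% and 41.0%. A match describes the letters only and is no site. Among genes with 2 or more clusters TGTA followed the distal of the 2 largest in 66.8% and the proximal in 58.7%.

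The downstream neighbour differed in kind and distance. It was convergent, on the other strand, for 1605 genes (57.1%) and tandem, on the same strand, for 1207 (42.9%). The distance from the stop codon to the coding sequence of the neighbour had a median of 405 nt in convergent and 810 nt in tandem genes. The median 3′ UTR was 166 nt (quartiles 89 and 301) in convergent and 200 nt (quartiles 100.5 and 351) in tandem genes. With neighbours under 100 nt away the median of 89 convergent genes was 281 nt, and from 100 to under 200 nt that of 156 was 111.5 nt; only 3 and 7 tandem genes lay so close. From 200 to under 400 nt the medians were 123 nt and 84.5 nt, for 538 convergent and 98 tandem genes. From 400 to under 800 nt they were 201 nt and 176 nt, for 570 and 479 genes, and from 800 to under 1600 nt 282 nt and 280 nt, for 206 and 461 genes. At 1600 nt or more they were 305 nt and 274 nt, for 46 and 159 genes.

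**Figure D5:**
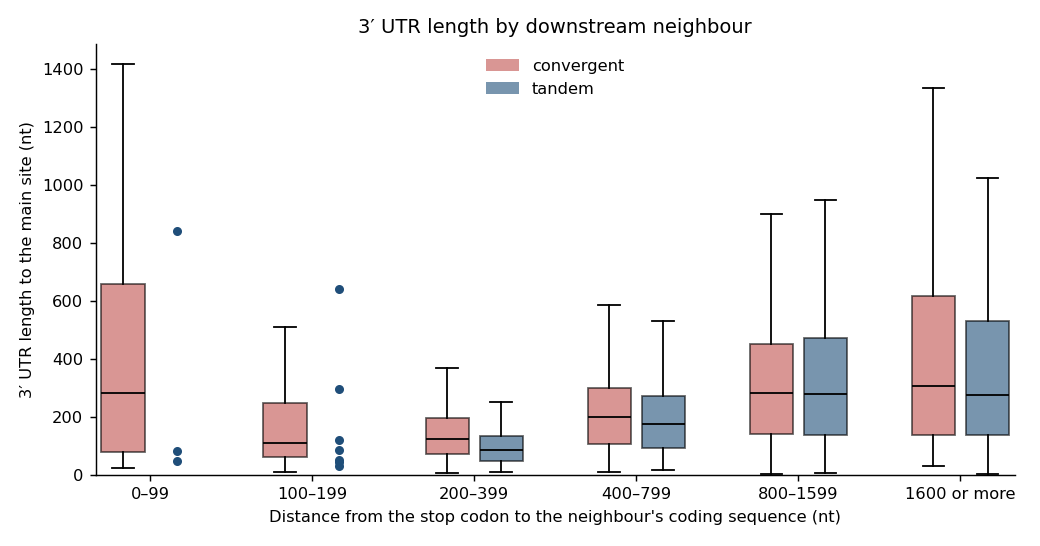
3′ UTR length to the main site (vertical axis, nt) by distance from the stop codon to the neighbour's coding sequence (horizontal axis, nt) for convergent and tandem genes; boxes are quartiles with the median as a line, whiskers reach the last value within 1.5 times the box, values beyond are not drawn, and classes under 20 genes are single points. From 100 nt on the convergent medians are higher in each further class, but the class under 100 nt, at 281 nt, lies above the next 3.

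The 3′ UTR took a median of 41.2% of the distance to the neighbour's coding sequence in convergent and 25.8% in tandem genes. These distances are unlike. In convergent genes the distance ends at the neighbour's stop codon, and reads past it could be counted. In tandem genes it ends at the neighbour's start codon, and counting mostly stopped at an annotated gene start before it. The Spearman correlation between the distance to the neighbour and length was 0.24 over 1605 convergent and 0.40 over 1207 tandem genes. Counting stopped at a next gene on the strand in 66.4% of convergent and 93.6% of tandem genes, which caps the length and the spread of ends they can show. With a neighbour from 200 to under 400 nt away, convergent genes had a median main-cluster share of 77.0% and tandem genes one of 93.8%. Reads past a convergent neighbour's stop codon could be counted, but reads past a tandem neighbour's start mostly could not. The 2 shares are therefore not on the same footing. Over all distances the shares were 74.6% in convergent and 76.4% in tandem genes. The difference, convergent minus tandem, was -1.79 points, with an interval over genes that includes no difference (-4.70 to 1.12). With reads counted only up to the neighbour's coding sequence, the difference was 4.53 points (interval 1.67 to 7.40), with the convergent share the higher. Counting in tandem genes mostly stopped before that point already, so this setting mainly shortened the windows of convergent genes.

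Main ends of convergent neighbours often overlapped. In 469 convergent pairs with both genes measured, the main ends overlapped in 147 (31.3%), by a median of 146 nt. The share was 80.6% of the 62 pairs with stop codons under 200 nt apart, 35.9% of 153 from 200 to under 400 nt, 20.7% of 179 from 400 to under 800 nt and 6.67% of 75 further apart. In 82 pairs an end lay past the stop codon of the partner, in or beyond its coding sequence, and in 32 both did. Whether reads at such ends belong to the mRNA or to another transcript on the same strand cannot be told apart here. The lengths of the 2 genes of a pair were nearly unrelated (Spearman correlation 0.04 over 469 pairs).

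The furthest overlaps with 200 or more reads in both genes were those of SPCC1672.01 with sap1, SPBC1539.02 with arg41, and scs22 with cut8. The first pair overlapped by 1892 nt, and sap1, which encodes a DNA-binding protein, had 98.6% of 3756 reads in the cluster at 783 nt. arg41, the argininosuccinate lyase gene of arginine synthesis, had 92.9% of 239 reads in the cluster at 42 nt, and the overlap came from SPBC1539.02, whose main end at 899 nt held 33.8% of 207 reads. scs22 and cut8 have stop codons 3 nt apart and main ends at 336 nt and 250 nt. The 219 convergent genes whose main end lay past the neighbour's stop codon had a median main share of 57.1% and 116 reads, and the other 1386 one of 77.0% and 167 reads.

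Other features of the genes went with small differences. Genes with introns in the coding sequence had a median 3′ UTR of 157 nt (1336 genes) and genes without 200 nt (1476), and coding sequences under 600 nt had one of 194 nt (611) and those of 2400 nt or more one of 143 nt (347). On chromosome III the median was 225 nt (488 genes), against 172 nt on chromosome I (1266) and 174 nt on chromosome II (1058). The median distance to the neighbour was also larger on chromosome III, at 721 nt, against 568 nt for all genes, and its part in the length was not tested.

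Main sites were mostly upstream of the annotated ends. The annotated end was taken as the outermost 3′ coordinate of the gene record. The main site lay within 25 nt of the annotated 3′ end in 790 genes (28.1%), more than 25 nt before it in 1710 (60.8%) and more than 25 nt past it in 312 (11.1%), and the median difference was -54 nt. Relative to the annotated end the main site lay at -4322 nt in bet4 and at -239 nt in act1. It coincided with the main site to the nucleotide in gpd3, sam1 and met26. The example genes leu1, which encodes an enzyme of leucine synthesis, and his3, of histidine synthesis, had main clusters at 45 nt with 97.2% of 145 reads and at 218 nt with 59.7% of 154. The cell cycle genes cdc2 (23 reads) and cdc25 (14), the mating regulator ste11 (14) and the purine gene ade6 (41) were under 50 reads and are not members.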

How the data were processed

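The authors deposited counts of poly(A) site-supporting reads per position and strand, with no normalization. The tool Bowtie2 and the build ASM294v2 are named, per the submitters' processing notes, and the version and any read filter were not given in the sources used here. Per the labels, the protocol speaks of RPM, but the deposited values are whole numbers. Gene models were those of RefSeq on ASM294v3. Over bins along the chromosomes, 0.328% to 4.77% of positions were followed by A, so positions were read as 1-based on this sequence. By strand the share was 3.81% of 58293 plus-strand positions and 0.0% of 56181 minus-strand positions, and the cause of this difference was not tested. Reads of a coding gene ran from the stop codon to 1000 nt past its annotated end, or to the next gene on the strand. That next gene was a coding gene starting past the stop codon, or a gene of any class starting past the annotated end. Non-coding genes starting between the stop codon and the annotated end did not stop the count. Genes needed 50 reads. Clusters were built around the highest remaining position, out to 24 nt on each side, until no reads were left. Named genes were those with the most reads, the longest, shortest, most divided and most concentrated with 200 or more reads, the 2 members with most reads of each list, fixed examples and the most overlapping convergent pairs; other list members and ribosomal gene copies named were added after their values were seen. The set, gene lists and examples were chosen with earlier results of these data known. Thinning to 50 reads was the mean of 20 draws a gene. No test was run, since there is 1 library. Wilson 95% intervals cover counting error only, and PCR copies count as separate reads. The cluster code was tested on simulated data. Python 3.11.15, numpy 2.4.6, pandas 2.3.3, scipy 1.17.1, statsmodels 0.14.6 and matplotlib 3.10.9 were used.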

Additional observations from a re-analysis of the deposited data

Results flagged for a closer look

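Reads outside the 3 chromosomes were flagged because they exceed the 3 reads that a count of 0 allows and no comparison used them. The contig AB325691 held 4126 reads, MTR 18 and MT 8.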

How the results depend on the processing

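Of 132 values of 14 results under up to 12 alternatives, 27 moved beyond the 95% interval of the reported value over genes and 2 changed sign. No paired analysis was possible because there is 1 wild-type library. The share of genes with 2 or more clusters was 73.2% as reported, 82.0% with clusters of 10 nt, 63.1% with 50 nt, 76.3% from 20 reads, 64.0% from 200 reads, 58.5% and 85.2% with clusters from 10% and 2% of reads, and 70.6% with reads only up to the neighbour's coding sequence, an alternative chosen after seeing the data. The median number of clusters was 3 with 10 nt and with 2%. The median main-cluster share was 65.6% with 10 nt, 85.7% with 50 nt, 72.7% from 20 reads, 84.2% from 200 reads and 78.9% up to the neighbour. The spread of ends was 80 nt from 20 reads, 41 nt from 200 reads, 63 nt with reads up to 300 nt past the annotated end and 56 nt up to the neighbour. The median mean length was 186 nt, 191 nt and 175 nt under the last 3 of these, and the median main-site length 170 nt up to the neighbour. The Spearman correlation of reads and length was -0.05 as reported, 0.016 from 20 reads, where it changed sign, and -0.15 from 200 reads, and that of reads and main-cluster share 0.23 up to the neighbour. Convergent minus tandem length was -34 nt as reported, -18 nt from 200 reads and -58 nt up to the neighbour, where the share difference reversed to 4.53 points. That last setting mainly shortened the windows of convergent genes. Main sites within 25 nt of the annotated end were 30.7% from 200 reads. The causes were not tested. The ribosomal protein median stayed between 55 and 59 nt in the 10 alternatives run on it. The chance of a shared cluster was 30.5 points higher in the bin with the most reads than in that with the fewest, 27.5 without ribosomal protein genes and 29.4 with genes thinned to 50 reads, both chosen after seeing the data.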
